A study of Bos taurus with 252 samples.

Results

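Toll-like receptors TLR1 to TLR10 were followed in the whole blood of cattle. The members were taken by name, as the rows TLR1 to TLR10 of a gene count table with 33282 rows. A row was found for 9 of the 10, TLR2 to TLR10, and all 9 passed the filter on low counts that left 19056 genes to test. No row carried the symbol TLR1, so TLR1 was not analysed here. RefSeq (assembly ARS-UCD2.0) gives TLR1 as a synonym in its entries for both TLR6 and TLR10, and those entries are next to each other with overlapping spans.

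Blood was drawn from 42 crossbred steers on day 0 and again 3, 7, 14, 21 and finally 56 days later, so that each steer gave 6 libraries. After the day 0 sample each steer received a single subcutaneous label treatment with 1 of 6 antimicrobials, or none. Antimicrobials of this kind are given to cattle at high risk of bovine respiratory disease. The 7 groups of 6 steers were a negative control without antimicrobial (NC), ceftiofur (CEFT, a cephalosporin), enrofloxacin (ENRO, a fluoroquinolone), florfenicol (FLOR, a phenicol), oxytetracycline (OXYT, a tetracycline), tildipirosin (TILD, a macrolide) and tulathromycin (TULA, a macrolide). All steers, NC included, had been given tildipirosin, respiratory vaccines, a growth implant and antiparasitics during backgrounding, before they arrived at the feedlot. Each treatment was kept in a pen of its own, so that treatment and pen cannot be told apart, and the groups were sampled in a fixed order with NC first. Steers of a group were separate animals, and the 6 libraries of a steer were repeated samples of 1 animal.

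Toll-like receptors are sentinels of innate immunity that bind conserved microbial molecules and signal through the adaptors MYD88 and TICAM1 to NF-kB and interferon regulatory factors. TLR2 binds bacterial lipoproteins as a partner of TLR1 or TLR6, TLR4 with LY96 and CD14 binds lipopolysaccharide, and TLR5 binds flagellin at the cell surface. TLR3 binds double-stranded RNA, TLR7 and TLR8 single-stranded RNA, and TLR9 unmethylated CpG DNA, all inside endosomes. In blood, TLR2 and TLR4 are known from neutrophils and monocytes, and TLR9 and TLR10 from B cells.

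Library totals ranged from 26.1 to 74.1 M counts with a median of 43.6 M. The share taken by hemoglobin genes ran from 0.00405% to 25.5% (median 0.900%). Libraries were sequenced on 3 lanes: NC and ENRO on lane 1, TULA on lane 2, CEFT and OXYT on lane 3, FLOR on lanes 1 and 2, and TILD on lanes 2 and 3. All 6 libraries of a steer shared a lane, so comparisons between days were made within a lane, while CEFT, OXYT, TILD and TULA shared no lane with NC. Defining markers of neutrophils, monocytes, B cells, T cells and red cells were present, with medians of 676 CPM (counts scaled to a common library size) for S100A9, 178 CPM for CSF1R, 729 CPM for CD79A, 809 CPM for CD3E and 4290 CPM for HBB. CPM was computed after TMM scaling and is not corrected for gene length, so levels of different receptors are not ranked.

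TLR6 ranged from 68.5 to 187 CPM over all libraries, with a median of 110 CPM. TLR4 ranged from 35.3 to 281 CPM (median 76.4), TLR7 from 32.7 to 139 CPM (median 63.3) and TLR2 from 21.7 to 153 CPM (median 62.5). TLR3 ranged from 11.5 to 36.4 CPM (median 20.9) and TLR9 from 4.50 to 32.4 CPM (median 15.4). These 6 receptors were detected in every library with at least 221 counts. TLR5 was detected with few counts, 0.353 to 3.76 CPM (median 1.23), on a median of 54 counts per library. TLR8 ranged from 0.152 to 60.9 CPM (median 4.50), a wider ratio than for any other receptor without a library at 0. TLR10 ranged from 0 to 34 CPM (median 13.8) and was at 0 in 8 libraries.

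The first question was how each receptor moved over the receiving period in all 42 steers, tested in edgeR's quasi-likelihood model with the steer as a block. An effect of day passed an FDR of 0.05 for 7 of the 9 receptors, TLR2, TLR3, TLR4, TLR5, TLR6, TLR7 and TLR9, where 80.4% of all genes tested passed it. TLR8 (FDR = 0.0512) and TLR10 (FDR = 0.455) did not pass. Of the 45 contrasts of a receptor on a later day against day 0, 20 were lower and 6 were higher, where 27.5% and 29.7% of all such contrasts over genes were. By day, 3 of 9 receptors passed on day 3, beside 42.1% of genes, and 4 on day 7, beside 46.8%. On day 14 there were 6 (65% of genes), followed by 7 (66.4%) and 6 (65.4%) at the last samplings. Between consecutive samplings, 6 receptors passed from day 3 to 7 (23.1% of genes), 3 from day 7 to 14 (49.4%), 2 from day 14 to 21 (14.7%) and 0 in edgeR from day 21 to 56 (8.14%), where 1, TLR7, had an unadjusted p under 0.05 and limma voom also called 0. The median log2 change of all genes was 0.03 or less in size in each of these contrasts.

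**Figure D1:**
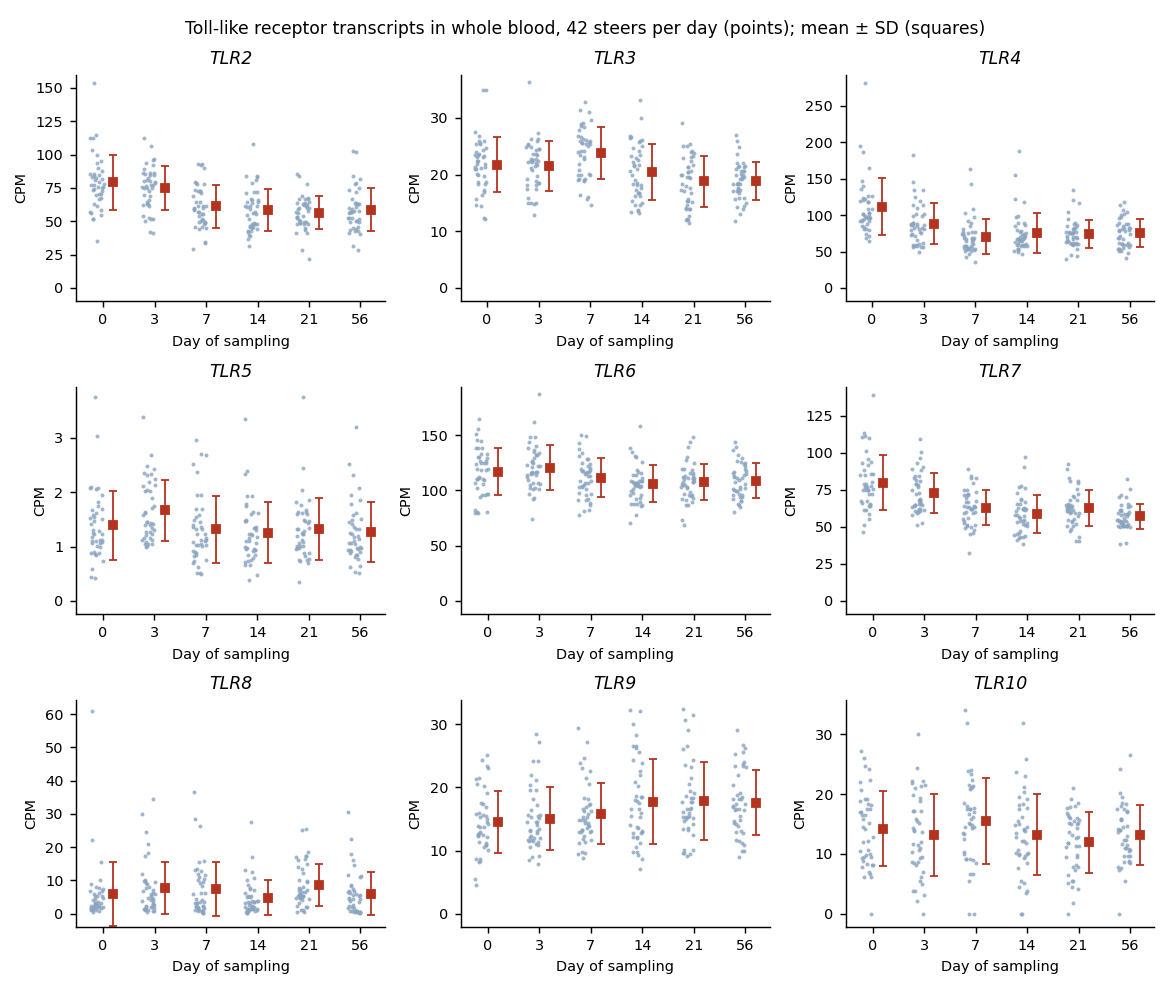
CPM of each receptor by day of sampling, with 1 point per steer (42 per day) and the mean ± SD as a square with bars. TLR2, TLR4 and TLR7 sit highest on day 0 and lower from day 7, TLR9 is higher from day 14, and TLR10 has points at 0 on every day.

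Among the surface receptors, TLR4 fell the most. TLR4 had a lowest, median and highest level of 64.8, 100 and 281 CPM on day 0, of 35.3, 66.2 and 164 CPM on day 7, and of 41.7, 75.9 and 119 CPM at the last sampling. The ranges of the days overlapped, yet 38 of 42 steers were lower than their own first sample on each of days 7, 14 and 21, and 37 on day 56. The log2 change from day 0 was -0.36 on day 3 (SE 0.07, FDR = 9.90e-06), -0.67 on day 7 (SE 0.07, FDR = 1.70e-15) and -0.58 on day 56 (SE 0.07, FDR = 6.27e-13). TLR4 also fell from day 3 to day 7 (log2 change -0.31, SE 0.07, FDR = 0.000372), and no step between later days passed the threshold. Within lanes 1, 2 and 3 the day 56 change was -0.56, -0.42 and -0.80, each past the threshold.

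TLR2 followed with a delay. Its lowest, median and highest levels were 35.2, 77.2 and 153 CPM on day 0, 40.9, 76.6 and 112 CPM on day 3, and 21.7, 57.2 and 85.1 CPM on day 21. On day 21, 40 of 42 steers were below their day 0 level, with a median ratio of 0.726. The log2 change was -0.08 on day 3 (SE 0.05, FDR = 0.233) and -0.50 on day 21 (SE 0.05, FDR = 9.20e-17), and the step from day 3 to day 7 was the only one to pass between consecutive days (-0.31, SE 0.05, FDR = 1.10e-06). The day 56 change of -0.45 was -0.40, -0.25 and -0.75 within lanes 1, 2 and 3.

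TLR6, which pairs with TLR2, moved little. The median was 119 CPM on day 0 and 106 CPM on day 14, when 31 of 42 steers were lower than on day 0. The log2 change was -0.14 on day 14 (SE 0.03, FDR = 2.37e-05) and -0.10 on day 56 (SE 0.03, FDR = 0.00279). Within lanes 1, 2 and 3 the day 56 change was -0.11, -0.03 and -0.22, and only lane 3 passed the threshold alone.

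TLR5 moved the other way, and briefly. From lowest through median to highest, TLR5 was at 0.422, 1.24 and 3.75 CPM on day 0 and at 0.987, 1.45 and 3.39 CPM on day 3, and 29 of 42 steers were higher on day 3. The log2 change was 0.28 on day 3 (SE 0.09, FDR = 0.00912), and the level fell again by day 7 (step of -0.35, SE 0.09, FDR = 0.00192). The day 3 change was 0.43, 0.13 and 0.25 within lanes 1, 2 and 3, and of these only lane 1 passed. TLR10 had daily medians between 12.6 and 15.5 CPM, and its log2 changes from day 0 lay between -0.22 and 0.07 (SE 0.16 each, lowest FDR = 0.216).

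Among the endosomal receptors, TLR7 fell in the most steers. The lowest, median and highest levels of TLR7 were 46.3, 77 and 139 CPM on day 0 and 38.3, 54.6 and 82.1 CPM on day 56, when 39 of 42 steers were lower. The log2 change was -0.13 on day 3 (SE 0.05, FDR = 0.0156), -0.34 on day 7 (SE 0.05, FDR = 1.97e-10), -0.45 on day 14 (SE 0.05, FDR = 8.20e-17) and -0.48 on day 56 (SE 0.05, FDR = 1.05e-18). TLR7 fell at each of the steps from day 3 to 7 (FDR = 0.000306) and 7 to 14 (FDR = 0.0428), and neither later step passed. Within lanes 1, 2 and 3 the day 56 change was -0.49, -0.30 and -0.69, each past the threshold.

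TLR3 rose before it fell. Its lowest, median and highest levels were 12.1, 21.9 and 34.9 CPM on day 0, 14.6, 24.6 and 32.9 CPM on day 7, and 11.5, 19.4 and 29.1 CPM on day 21. On day 7, 29 of 42 steers were above their day 0 level (log2 change 0.14, SE 0.04, FDR = 0.00208), and on day 21, 35 of 42 were below it (-0.22, SE 0.04, FDR = 6.94e-07). The steps of TLR3 past the threshold were 0.15 from day 3 to 7, -0.24 from day 7 to 14 and -0.12 from day 14 to 21 (FDR = 0.00310, 1.91e-07 and 0.0281). The day 56 change of -0.19 was -0.25, -0.34 and -0.03 within lanes 1, 2 and 3, and lane 3 did not pass (FDR = 0.775).

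TLR9 was the one receptor that passed as higher on 3 later days. The lowest, median and highest levels of TLR9 were 4.50, 13.9 and 25.1 CPM on day 0 and 8.91, 17 and 29.1 CPM on day 56, when 30 of 42 steers were higher. The log2 change was 0.30 on each of days 14, 21 and 56 (SE 0.10 each, FDR = 0.00515, 0.00446 and 0.00525), and no step between consecutive days passed. No change passed in lane 3, which held CEFT, OXYT and 2 TILD steers, and there the changes on days 14, 21 and 56 were 0.06, -0.02 and 0.05 (lowest FDR = 0.762). In lane 1 they were 0.48, 0.31 and 0.46, of which day 21 did not pass (FDR = 0.178). In lane 2 they were 0.30, 0.58 and 0.32, of which only day 21 passed (FDR = 0.00292). A difference between lanes was not tested. By group, the fitted changes on days 14, 21 and 56 were 0.86, 0.65 and 0.82 in ENRO and 0.34, 0.72 and 0.78 in TULA. They were 0.49, 0.51 and 0.11 in TILD, 0.31, 0.02 and 0.31 in NC, and 0.32, 0.13 and 0.05 in OXYT. CEFT had 0.06, -0.11 and 0.06, and FLOR had -0.28, 0.20 and -0.05. ENRO had the lowest mean of the groups on day 0, 10.5 CPM, against 15.2 CPM in NC.

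Averaged over all steers, TLR8 rose on day 21, although its effect of day did not pass. Its lowest, median and highest levels were then 0.385, 6.53 and 25.4 CPM, against 0.453, 3.16 and 60.9 CPM on day 0. On day 21, 30 of 42 steers were above their day 0 level, and the log2 change was 0.75 (SE 0.30, FDR = 0.0240). The step from day 14 to 21 was 0.88 (SE 0.31, FDR = 0.0372). No lane passed alone, and the changes were 1.14, 1.01 and 0.03 in lanes 1, 2 and 3. By group, the fitted log2 change on day 21 was 2.2 in NC and 1.66 in FLOR. It was 0.77 in TILD, 0.49 in TULA, 0.20 in CEFT, 0.08 in ENRO and -0.19 in OXYT. NC and ENRO were both on lane 1. All steers were sampled on the same days, so day and anything else that changed between sampling occasions cannot be told apart.

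The untreated steers alone gave 6 of 45 contrasts past an FDR of 0.05. None passed in edgeR on days 3 and 7, when 0.373% and 3.63% of all genes passed, with 2 and 1 at an unadjusted p under 0.05 and none past the threshold in limma voom. On day 14, when 30.2% of genes passed, TLR2 (-0.40, SE 0.14, FDR = 0.0173) and TLR4 (-0.64, SE 0.19, FDR = 0.00537) were lower. On day 21, when 24.9% passed, TLR4 was lower (-0.64, SE 0.19, FDR = 0.00735) and TLR8 was higher (2.2, SE 0.80, FDR = 0.0306). On day 56, when 30.8% passed, TLR4 (-0.53, SE 0.19, FDR = 0.0241) and TLR7 (-0.39, SE 0.12, FDR = 0.00944) were lower. In the 6 NC steers TLR8 was at 0.720 to 7.33 CPM (median 3.18) on day 0 and at 8.12 to 17.4 CPM (median 15.7) on day 21, and the 2 days did not overlap, which held for 2.69% of all genes between these days. Without the steer as a block none of the 45 passed in edgeR, with 4 at an unadjusted p under 0.05.

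Markers of blood cell types moved over the same days. By day 56, 31.9% of all genes tested had fallen and 33.5% had risen at an FDR of 0.05. Of 7 neutrophil markers tested, 6 fell and none rose by day 56 (median log2 change -0.59), and the sum of their levels ranged from 1578 to 5346 CPM on day 0 and from 1101 to 4160 CPM on day 56. Of 7 monocyte markers 6 fell (median -0.67), with sums of 441 to 1487 CPM on day 0 and 278 to 926 CPM on day 56. All 7 T cell markers rose (median 0.42), with sums of 1103 to 2308 CPM on day 0 and 1576 to 3175 CPM on day 56, and of 7 B cell markers 5 rose and 1 fell (median 0.38), with sums of 952 to 2503 CPM and 1457 to 3180 CPM. Of the markers in these 4 lists, CSF3R, a neutrophil marker, had no row under that symbol, and the lowest median among the rest was 0.592 CPM, for FCGR1A. In whole blood, fewer cells of a type and less RNA per cell cannot be told apart. The part of these markers in the changes of the receptors was not tested.

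Over all libraries TLR4 correlated with the mean of the neutrophil (Pearson r = 0.56) and monocyte (r = 0.56) markers, and TLR2 with the same lists (r = 0.47 and 0.55). TLR7 correlated with the monocyte markers (r = 0.53). With the T cell markers the relation was inverse for TLR7 (r = -0.66), TLR2 (r = -0.60), TLR6 (r = -0.45) and TLR4 (r = -0.42). TLR9 (r = 0.34) and TLR10 (r = 0.36) were highest with the B cell markers, and no list reached 0.12 in size with TLR8. The r of TLR10 includes 8 libraries at 0, whose log2 level is set by the count added before taking logs. The libraries share steers, days and lanes, so these are descriptions.

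The second question was whether a treatment moved a receptor away from NC. On each day the 6 treated steers were compared with the 6 NC steers by edgeR, and 3 of the 324 comparisons passed an FDR of 0.1, where 0.508% of all comparisons over genes passed. All 3 were on day 3: TLR2 in ENRO, TLR3 in CEFT and TLR7 in OXYT, where 2.52%, 8% and 2.31% of genes passed. The ranges of treated and NC steers did not overlap in 3 of the 324, where 0.810% did not overlap over all genes. The third, beside TLR2 in ENRO and TLR7 in OXYT, was TLR8 in ENRO on day 21, at 0.385 to 7.74 CPM against 8.12 to 17.4 CPM in NC, and this did not pass (-1.46, SE 0.48, FDR = 0.993). In that comparison 5 OXYT, 4 CEFT, 4 TILD, 4 TULA and 3 FLOR steers were also below the NC range. Above it were 1 CEFT, 1 TULA and 2 FLOR steers. OXYT had the largest difference from NC (-1.92, SE 0.53, FDR = 0.427 in edgeR and 0.0271 in DESeq2). From day 0 to day 21 the fitted log2 change of TLR8 was 2.2 in NC and 0.08 in ENRO. On day 0, before treatment, none of the 54 passed in edgeR or DESeq2, and 3 had an unadjusted p under 0.05 in edgeR.

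**Figure D2:**
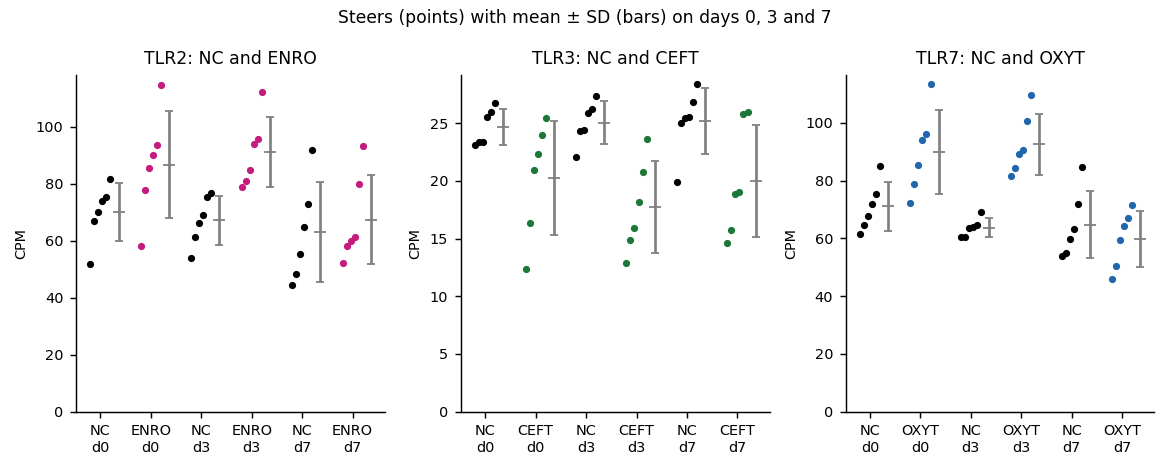
CPM of TLR2 in NC and ENRO, TLR3 in NC and CEFT, and TLR7 in NC and OXYT on days 0, 3 and 7, with 1 point per steer (6 per group) and bars for the mean ± SD. On day 3 TLR2 and TLR7 are higher in every treated steer than in any NC steer, and TLR3 is lower in 5 of 6 CEFT steers than in any NC steer.

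TLR7 was higher in OXYT on day 3. From lowest through median to highest it was at 81.6, 89.8 and 110 CPM in OXYT and at 60.5, 63.8 and 69 CPM in NC, with no overlap. The log2 difference was 0.53 (SE 0.08, FDR = 0.0400), and between 0.47 and 0.56 with any 1 of the 12 steers left out (FDR = 0.0232 to 0.0944). Before treatment the groups stood at 72.2 to 113 CPM and 61.6 to 85.0 CPM, a log2 difference of 0.34 (SE 0.12, FDR = 0.837), with 4 of 6 OXYT steers above the NC range. On day 7 the difference was -0.12 (SE 0.14, FDR = 0.906). On day 3 the summed T cell markers were at 1302 to 1784 CPM in OXYT and 1490 to 2410 CPM in NC, the neutrophil markers at 2070 to 3395 CPM and 1564 to 2569 CPM, and the monocyte markers at 612 to 1156 CPM and 375 to 1059 CPM. Their part in the difference was not tested, and OXYT and NC were on different lanes. With lane as a term the difference was 0.78 and did not pass (FDR = 0.809).

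TLR2 was higher in ENRO on day 3. The 6 ENRO steers had 78.8, 89.4 and 112 CPM as lowest, median and highest level, and the NC steers 54.1, 67.6 and 76.9 CPM, with no overlap, on the same lane. The log2 difference was 0.44 (SE 0.10, FDR = 0.0820). On day 0 it was 0.31 (SE 0.15, FDR = 0.868), with 4 of 6 ENRO steers above the NC range, and on day 7 it was 0.09 (SE 0.19, FDR = 0.867). The summed neutrophil markers on day 3 were at 2212 to 4637 CPM in ENRO and 1564 to 2569 CPM in NC. Over all libraries TLR2 had a larger r with the T cell (-0.60) and monocyte (0.55) markers than with the neutrophil markers (0.47). Sums of those 2 lists are not given here for ENRO, and the part of any list was not tested. The call was lost (FDR = 0.108 to 0.163) without any 1 of the steers NC1, NC7, NC12, NC13, NC15, Enro5, Enro6, Enro8 and Enro10, with the difference between 0.37 and 0.47, and also without the filter on low counts (FDR = 0.122). Over 7 alternatives the FDR reached 0.229, with the difference between 0.43 and 0.48. The call was also lost with lane as a term, in a fit over all steers of the day. That term takes no part in a difference between groups of the same lane.

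TLR3 was lower in CEFT on day 3. Its lowest, median and highest levels were 12.9, 17 and 23.7 CPM in CEFT and 22, 25.2 and 27.3 CPM in NC, and 5 of 6 CEFT steers were below the NC range. The log2 difference was -0.51 (SE 0.14, FDR = 0.0783), after -0.28 on day 0 (SE 0.16, FDR = 0.977). With lane as a term it was -0.16 (FDR = 0.936), with ComBat_seq it was -0.38 (FDR = 0.506), and without the filter on low counts -0.52 (FDR = 0.12). The call was lost (FDR = 0.106 to 0.156) without any 1 of NC1, NC7, NC12, NC13, NC15, Ceft3, Ceft4, Ceft5 and Ceft6, with the difference between -0.55 and -0.44. TLR3 was below NC in CEFT on all 6 days, by 0.10 to 0.51 on the log2 scale, including day 0, before the drug. This was not particular to CEFT. TLR3 was also below NC on all 6 days in ENRO, TILD and TULA, and on day 3 in every treated group. The summed B cell markers on day 3 were at 957 to 2736 CPM in CEFT (median 2187) and 1156 to 1985 CPM in NC (median 1393), and their median was higher in CEFT on the other 5 days too. Over all libraries TLR3 had r = -0.36 with these markers, and their part in the difference was not tested.

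Averaged over the 6 days, with the steer as a random effect in limma voom, 2 of 54 comparisons with NC passed an FDR of 0.05, where 1.95% passed over all genes. Both were TLR3, lower in CEFT (-0.32, SE 0.10, FDR = 0.0481) and in TILD (-0.35, SE 0.10, FDR = 0.0276), where 3.42% and 4.98% of genes passed. TLR3 was also lower, without passing, in TULA (-0.28, SE 0.10, FDR = 0.166) and in ENRO (-0.23, SE 0.10, FDR = 0.405), which shared its lane with NC. Steer means of TLR3 were at 21.4 to 26.7 CPM in NC, 14.7 to 23.8 CPM in CEFT and 15.2 to 24.8 CPM in TILD, so the groups overlapped. On day 0 the difference was already -0.28 in CEFT and -0.26 in TILD (SE 0.13, FDR = 0.796). With lane as a term neither passed, and the values were 0.0013 (FDR = 1) and -0.22 (FDR = 0.836).

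The change from day 0 was then compared between each treatment and NC, which takes out the level before treatment. Taking the 5 later days together, 1 of 54 tests passed an FDR of 0.05, where 2.98% passed over all genes. It was TLR2 in OXYT (FDR = 0.0464), where 3.25% of genes passed. TLR2 in OXYT was at 61.7 to 99.96 CPM on day 0 (median 79.8) and at 40.2 to 52.2 CPM on day 56 (median 44), and in NC at 51.9 to 81.6 CPM (median 72.1) and 42.6 to 71.7 CPM (median 59.4). Its fitted log2 change from day 0 was 0.09, -0.65, -0.58, -0.65 and -0.82 in OXYT, taking the later days in order, and -0.07, -0.19, -0.40, -0.28 and -0.25 in NC. The difference of the changes was largest on day 56 (-0.57, SE 0.19, FDR = 0.126). None of the 270 single-day contrasts passed an FDR of 0.1 in edgeR, where 0.75% passed over all genes, and 18 had an unadjusted p under 0.05. TLR2 in OXYT did not pass without the filter on low counts (FDR = 0.0756) or without the steer as a block (FDR = 0.770).

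**Figure D3:**
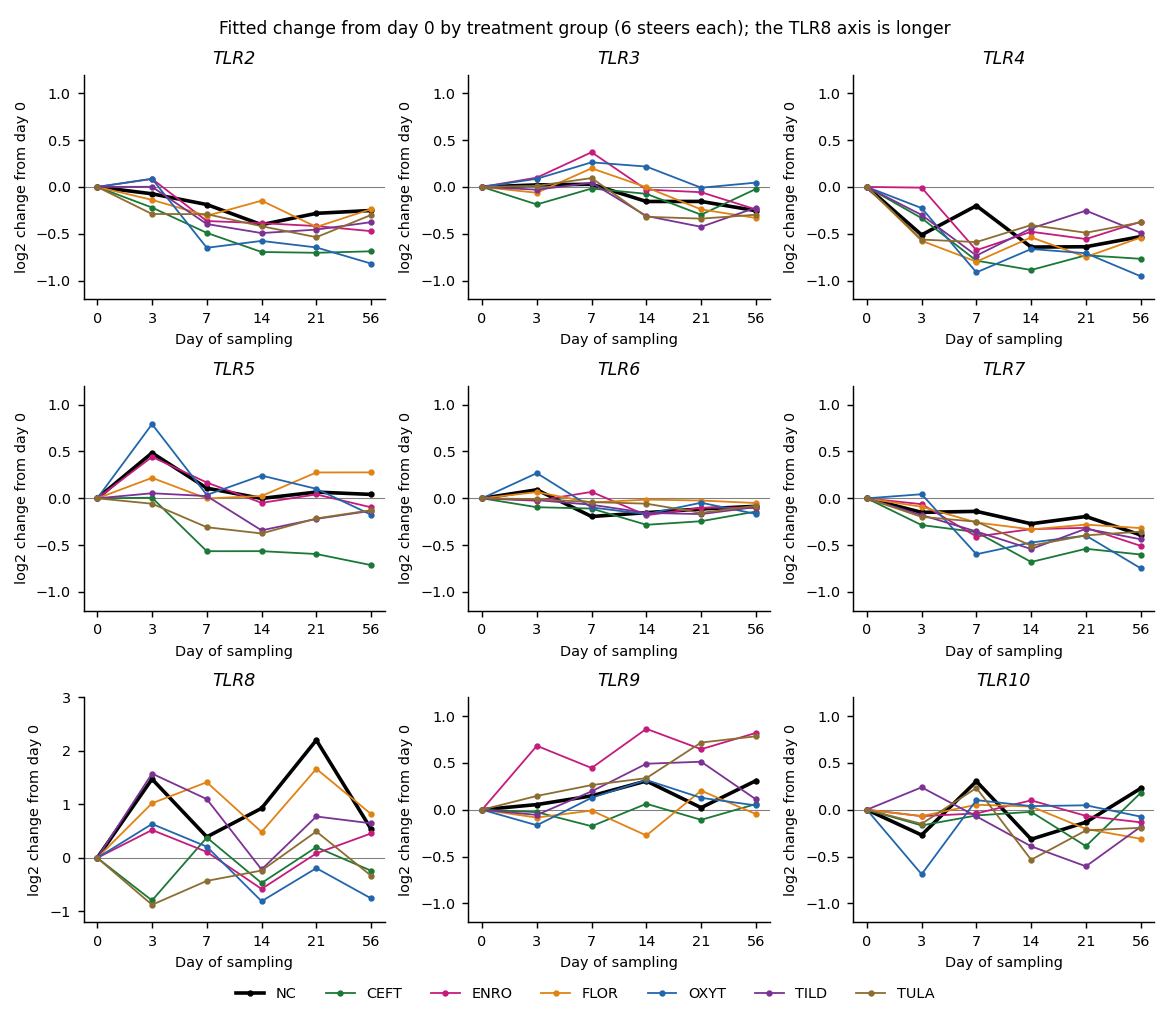
Fitted log2 change from day 0 of each receptor by day, with 1 line per treatment group of 6 steers and NC in thick black, without error bars. TLR2, TLR4 and TLR7 end below 0 on day 56 in all 7 groups, while the lines of TLR8 and TLR9 spread on both sides, and the TLR8 axis is longer.

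The receptors differed in how much of their spread lay between steers. Differences between steers took 61.3% of the variance of log2 levels for TLR6, 57.9% for TLR3, 49.2% for TLR2 and 48.9% for TLR5. They took 36.9% for TLR10, 35.9% for TLR7, 34.1% for TLR4, 24% for TLR9 and 21.3% for TLR8. The shares are not adjusted for the number of steers, so some share arises without any true difference between steers. They also include differences between treatments, pens and lanes, and treatments took 17.8% for TLR3 and 11.7% for TLR2. The share for TLR10 includes its 8 libraries at 0, whose log2 level is set by the prior count, and is not directly comparable with the others. Within a steer, the highest of the 6 levels was 1.33 times the lowest for TLR6 and 2.17 times for TLR9, as medians over steers, with TLR2, TLR3, TLR4, TLR5 and TLR7 between them, and TLR10 at 1.90 times in the 35 steers without a library at 0.

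TLR8 stood apart with a median ratio of 16.7 between a steer's highest and lowest library. The smallest such ratio was 2.27, and the largest was 234, in Tula4, whose libraries ran from 0.261 to 60.9 CPM. Tula4 gave 3 of the 10 highest TLR8 levels, 60.9 CPM on day 0, 30.6 CPM on day 56 and 25.3 CPM on day 21. TLR7, which RefSeq lists next to TLR8, was at 65.5, 64.2 and 59.6 CPM in the same 3 libraries, and the log2 levels of the pair correlated with r = 0.09 over all libraries of the 42 steers. TLR8 had between 5 and 3126 counts per library, and no gene of 13793 compared reached an r of 0.27 with it.

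**Figure D4:**
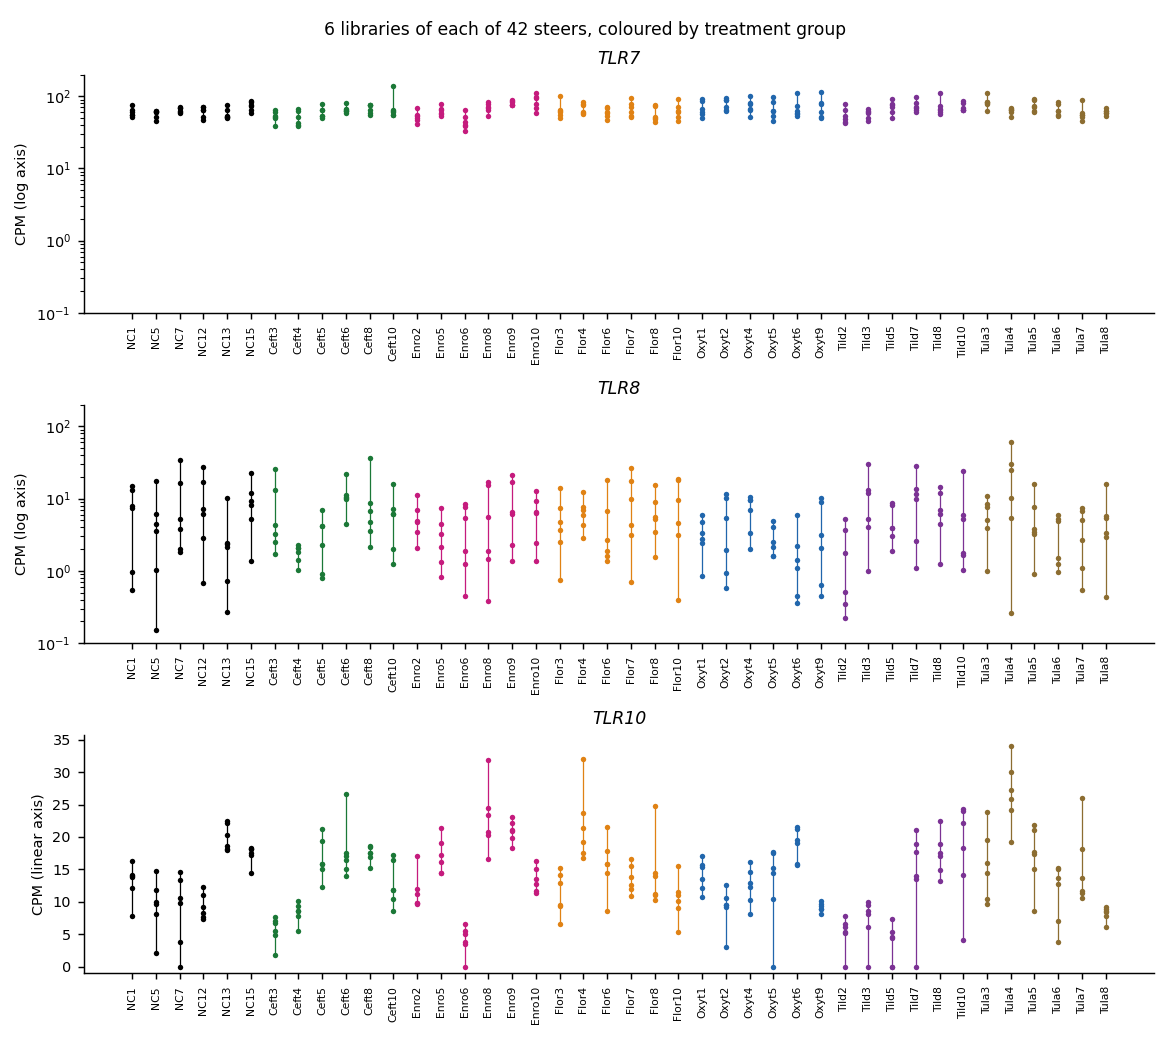
CPM of TLR7, TLR8 and TLR10 in the 6 libraries of each of 42 steers, with 1 column per steer joined from lowest to highest and coloured by treatment group; TLR7 and TLR8 are on the same log axis and TLR10 is linear. TLR7 columns are short, TLR8 columns span a median of 16.7-fold, and 7 steers have TLR10 at 0 on 1 or more days.

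TLR10 was at 0 in 8 libraries of 7 steers, which were NC7 on day 14, Enro6 on day 7, Oxyt5 on day 3, Tild2 on day 56, Tild3 on day 14, Tild5 on days 0 and 7, and Tild7 on day 21. TILD held 5 of the 8. A count of 0 allows up to 3 counts, 0.0560 to 0.110 CPM in these libraries, for counting error only. On their other days these steers were at 3.52 to 21.1 CPM, apart from the second 0 of Tild5, and Tild7, for example, was at 13.5 to 21.1 CPM. TLR6, whose RefSeq span overlaps that of TLR10, was at 78 to 140 CPM in the 8 libraries. In Oxyt5 TLR6 was at 140 CPM on day 3 and at 81.4 to 119 CPM on the other days. How counts were divided between the 2 genes was not tested.

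Steer means of the receptors were compared over the 42 steers in 36 pairs, by permutation tests with Benjamini-Hochberg adjustment. In Pearson's r, 6 pairs passed an FDR of 0.05, and in Spearman's rho none did (lowest FDR = 0.0873). TLR9 and TLR10 had r = 0.45 (permutation p = 0.00370, FDR = 0.0400) and rho = 0.46 (p = 0.00255), and r = 0.41 without the 2 steers farthest from the median of TLR9. In each pair the 2 farthest steers were picked on the first-named receptor only, so steers far out in the other receptor could remain. Within lanes 1, 2 and 3 the r of TLR9 with TLR10 was 0.81, 0.53 and 0.19. The steer means of TLR10 include its 8 libraries at 0. TLR6 correlated with TLR7 (r = 0.43, permutation p = 0.00445, rho = 0.41, p = 0.00760), with r = 0.42, 0.44 and 0.42 within the 3 lanes. TLR4 with TLR7 had r = 0.44 (permutation p = 0.00383, rho = 0.34, p = 0.0268), which was 0.29 without the 2 farthest steers, and 0.37, 0.31 and 0.68 within lanes. TLR2 with TLR6 had r = 0.41 (permutation p = 0.00752, rho = 0.42, p = 0.00541), 0.34 without the 2 farthest, and 0.21, 0.72 and 0.28 within lanes. TLR3 and TLR9 were inversely related (r = -0.41, permutation p = 0.00610, rho = -0.36, p = 0.0195), with -0.31, -0.23 and -0.65 within lanes. TLR2 with TLR8 had r = 0.44 (permutation p = 0.00328, rho = 0.29, p = 0.0628), which fell to 0.19 without the 2 steers farthest in TLR2 and rested on them. Within lanes 1, 2 and 3 the r of TLR2 with TLR8 was 0.09, 0.71 and 0.30.

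The tested genes with a mean of 1 CPM or more were ranked by Pearson's r with each receptor over all libraries, which share steers and days. For TLR4 the most alike were RNF19B (r = 0.78), TARS (r = 0.77) and ARHGAP26 (r = 0.76). For TLR7 they were FAM46A (r = 0.70), MPEG1 (r = 0.70), which encodes the pore-forming protein of macrophages, and TFEC (r = 0.68). For TLR2 they were SKAP2 (r = 0.68), SOAT1 (r = 0.67) and OSBPL9 (r = 0.66). For TLR3 they were PREPL (r = 0.71), ZGRF1 (r = 0.69) and F2R (r = 0.68), and for TLR6 they were KLHL3 (r = 0.66), CCDC88A (r = 0.63) and SNX30 (r = 0.63). For TLR5 they were CD86 (r = 0.56), a costimulatory molecule of antigen-presenting cells, CDH10 (r = 0.52) and TICAM2 (r = 0.52), the bridging adaptor of TLR4. For TLR10 they were VKORC1L1, B4GALT6 and SOX5 (r = 0.50 each), and for TLR9 POLD2 (r = 0.47), C1QTNF12 and CDIP1 (r = 0.45 each). The values for TLR10 include its 8 libraries at 0, whose log2 level is set by the prior count, and r without them was not computed. For TLR8 the highest was LOC101906281 (r = 0.26), followed by PKP2 and PDIA5 (r = 0.25 each).

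Around the receptors, 63 other genes of the pathway were grouped by role, and 61 were tested. By day 56, 33 of the 61 had fallen and 14 had risen at an FDR of 0.05, where 31.9% of all genes had fallen and 33.5% had risen. Of 9 co-receptors and trafficking factors, 4 fell and 2 rose. CD36, a scavenger receptor that presents lipids to TLR2, fell by 1.42 on the log2 scale (SE 0.28, FDR = 3.05e-06). CD14, which hands lipopolysaccharide to TLR4, fell by 0.89 (SE 0.08, FDR = 4.07e-20), and LY96, the subunit of TLR4 that binds it, fell by 0.68 (SE 0.06, FDR = 2.92e-23). UNC93B1, the escort of the endosomal receptors, rose by 0.13 (SE 0.04, FDR = 0.00133).

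Of the 6 adaptors, 3 fell and 2 rose by small amounts. SARM1, an inhibitory adaptor, rose by 0.29 (SE 0.04, FDR = 1.08e-09), and TICAM2 and PIK3AP1 each fell by 0.20 (SE 0.03 and 0.04). MYD88, the adaptor shared by most of the family, changed by -0.12 and did not pass (SE 0.06, FDR = 0.0654). Of 17 kinases and ubiquitin ligases, 10 fell and 5 rose. TAB3, a partner of the kinase TAK1, fell by 0.52 (SE 0.05), CHUK, a kinase of NF-kB inhibitors, fell by 0.50 (SE 0.04), and IKBKE, a kinase that acts on interferon regulatory factors, rose by 0.49 (SE 0.04), with FDR at most 4.63e-20.

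Of 9 transcription factors, 5 fell and 1 rose. REL, a subunit of NF-kB, fell by 0.95 (SE 0.20, FDR = 1.79e-05), IRF7, an interferon regulatory factor, fell by 0.65 (SE 0.28, FDR = 0.0316), and JUN, a subunit of AP-1, fell by 0.54 (SE 0.07, FDR = 1.06e-12). Of 10 inhibitors, 5 fell and 2 rose. SIGIRR, a decoy receptor that damps the pathway, rose by 0.71 (SE 0.04, FDR = 1.28e-41), TOLLIP rose by 0.41 (SE 0.04), and TNFAIP3 and IRAK3, which end signaling after stimulation, fell by 0.51 (SE 0.06) and 0.48 (SE 0.04). Of 10 induced cytokines tested, of 12 listed, 6 fell and 2 rose. CXCL8, a neutrophil chemoattractant, fell by 1.01 (SE 0.11, FDR = 1.09e-15), IL12B fell by 0.79 (SE 0.11), IL1A fell by 0.64 (SE 0.12), and TNF rose by 0.40 (SE 0.03, FDR = 4.24e-26). Median log2 changes were -0.42 for the co-receptors, -0.13 for the adaptors, -0.11 for the kinases, -0.11 for the transcription factors, -0.22 for the inhibitors and -0.28 for the cytokines, beside 0.02 for all genes tested.

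**Figure D5:**
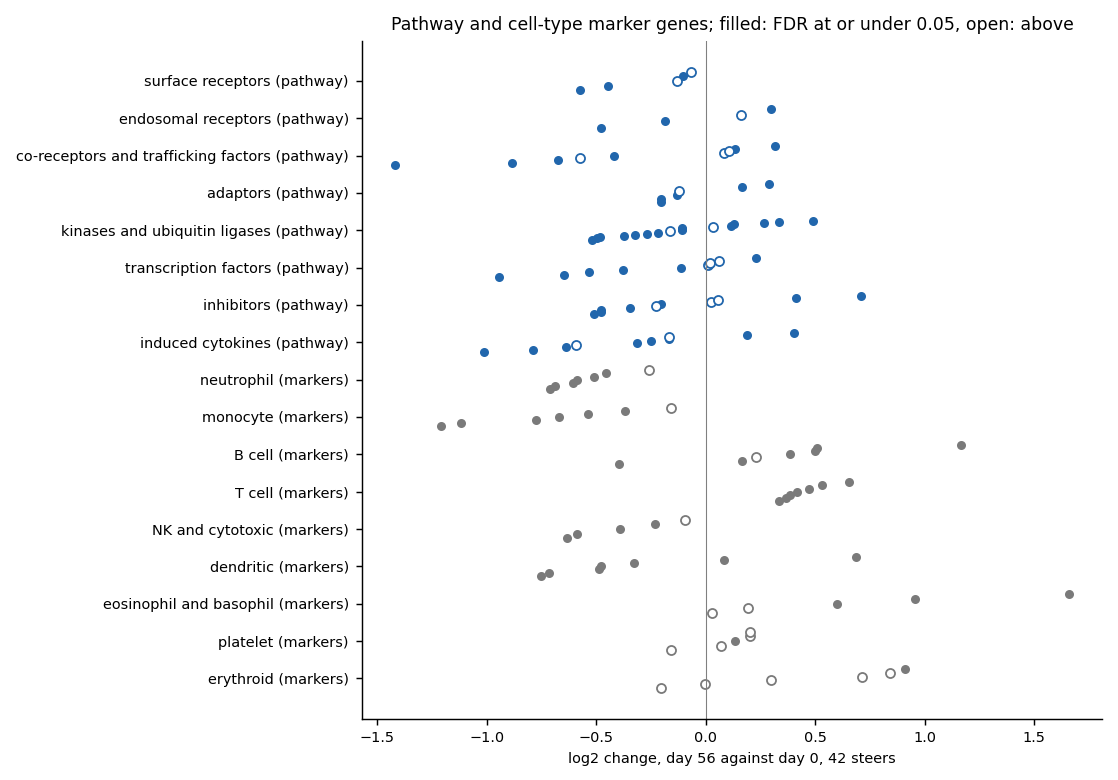
Log2 change from day 0 to day 56 over 42 steers for each tested gene of the receptor, pathway (blue) and cell type marker (grey) lists, filled where the FDR was at or under 0.05 and open where it was above. Most neutrophil and monocyte markers lie left of 0 with TLR2, TLR4, CD14 and LY96, and T cell markers lie right of it.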

How the data were processed

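Whole blood of 42 steers, 6 in each of 7 groups, was sampled on 6 days into PAXgene tubes. Per the labels and the study's methods, the authors made stranded mRNA libraries, trimmed reads with Trimmomatic 0.39, aligned them to the bovine genome ARS-UCD1.3 with HISAT2 and estimated gene counts with StringTie 2.2.0. The HISAT2 version is 2.1.1 in the submitters' processing notes and another in the study's methods. The deposited values are expected counts per gene symbol, given as whole numbers, without normalization or lane adjustment.

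The deposited counts were tested as they stand in R 4.3.3. Genes above 0.2 CPM in at least 12 of 252 libraries were kept (19056 of 33282, 4874 of which had no count), and libraries were scaled by TMM. Days were compared with edgeR 4.0.16 (glmQLFit and quasi-likelihood tests, with terms for each steer and for day by treatment). Treatments were compared with NC by edgeR on each day, 6 steers against 6, and over all days with limma 3.58.1 (voom, steer as a random effect). FDR is the Benjamini-Hochberg adjusted p over all genes tested, with thresholds of 0.05 for days and for the tests over several days and 0.1 for treatments on single days. Levels are CPM, and correlations use log2 CPM with a prior count of 2. Steer correlations used 100000 permutations, two-sided. Days of a steer were paired because they came from 1 animal: deviations of its libraries correlated at a median of 0.342, against -0.0820 between steers of a group, and above 0.1 in 42 of 42 steers. No 2 libraries held the same counts.

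Genes named were all members, up to 3 genes of each pathway list with the largest day 56 change among those past the day effect, and the 3 genes most alike to each member. Every member past an FDR of 0.1 against NC in the quasi-likelihood tests was also named. TOLLIP, TNF, UNC93B1 and MYD88 were named after their values were seen. Members and lists were chosen with earlier results of these data known. The alternatives were DESeq2 1.42.0 with its own size factors and adjusted p, no filter, no steer block, voom and removal of hemoglobin genes. RLE scaling, the kind used by DESeq2, also replaced TMM in edgeR and limma. Others were each lane alone, lane as a term, ComBat_seq from sva 3.50.0, likelihood ratio tests, and leaving out each steer. On single days the lane term was fitted over all steers of a day at once. Scripts were tested on simulated counts. RefSeq (ARS-UCD2.0) was used only for names and neighbours, and it held 9 of the 10 members by symbol. Gene lengths and sequences were not used here.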

Additional observations from a re-analysis of the deposited data

Results flagged for a closer look

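The change of TLR2 from day 0 differed between OXYT and NC over the 5 later days (edgeR quasi-likelihood test, FDR = 0.0464), with 1 of 54 such tests past the threshold, where 2.98% passed over all genes and treatments and 3.25% over all genes in OXYT. It did not pass without the filter on low counts (FDR = 0.0756) or without the steer as a block (FDR = 0.770).

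Among 69 groups of 6 steers, 5 held a steer far from the others of its group, where chance gives about 1 in 20. TLR2 in Enro5 averaged 93.5 CPM over its 6 days, against 63.4 to 72.6 CPM in the other ENRO steers. TLR4 in Enro10 averaged 136 CPM against 69.6 to 87.6 CPM in the other ENRO steers. TLR5 in Tula8 averaged 2.56 CPM, and the other TULA steers lay between 0.768 and 1.44 CPM. TLR6 in Flor10 averaged 92.5 CPM, below 106 to 113 CPM in the other FLOR steers. TLR8 in Tula4 averaged 22.1 CPM, with the other TULA steers at 3.30 to 6.18 CPM.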

How the results depend on the processing

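Over all steers, the counts of receptors with a day effect (7 of 9) and of later days below day 0 (20 of 45) stayed within 1.5 times of these values under each alternative run. Without the steer as a block, 3 of 45 contrasts were higher than day 0 (6 with it), 4 of 36 steps between days passed (11 with it), and 0 of 45 contrasts in NC (6 with it) and 0 of 54 changes against NC over 5 days (1 with it) did, with 4 of 45 and 1 of 54 at an unadjusted p under 0.05. Without the filter on low counts, when more genes were tested, 0 of 54 of these changes passed in edgeR (6 at an unadjusted p under 0.05). With the steers of 1 lane only, which are fewer, contrasts higher than day 0 numbered 1 in lane 2 and 0 in lane 3 (edgeR, 1 at an unadjusted p under 0.05), and steps numbered 1, 2 and 6 in lanes 1, 2 and 3. Of the 26 receptor contrasts past the threshold over all steers, 18, 17 and 16 passed in lanes 1, 2 and 3 in the same direction, and 2 changed direction in lane 3, TLR3 on day 14 (0.036, FDR = 0.708) and TLR9 on day 21 (-0.017, FDR = 0.956).

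Against NC on single days, 3 of 324 passed, and 1 did without the filter on low counts, 9 with DESeq2 and 0 with lane as a term (edgeR, 15 at an unadjusted p under 0.05). On day 3 DESeq2 also called TLR8 in CEFT and TLR2 and TLR4 in OXYT. Later it called TLR3 in TILD on day 14, TLR8 in OXYT on day 21 and TLR2 in OXYT on day 56. Shares over all genes under the alternatives are not given here, so these counts cannot be set against them. The FDR ranged over 7 alternatives from 0.0130 to 0.936 for TLR3 in CEFT, from 0.00672 to 0.229 for TLR2 in ENRO and from 1.02e-07 to 0.809 for TLR7 in OXYT. Over all days 2 of 54 passed, and 1 did on days 3 to 56 only, 1 with RLE scaling and 0 with lane as a term (limma, 2 at an unadjusted p under 0.05), where TLR3 in CEFT changed sign to 0.0013. The lane term rests on the FLOR and TILD steers, the only groups on 2 lanes. It takes no part in the difference of ENRO from NC, which were both on lane 1. Of 36 steer correlations 6 passed, and 10 did on deviations from the treatment mean. The causes of these differences were not tested. TLR5 and TLR8 had medians of 54 and 200 counts per library, which limits their precision.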

Other observations

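Markers of further cell types also moved by day 56 in the fit over 42 steers. Of all genes tested, 31.9% had fallen and 33.5% had risen by then. Of 5 NK and cytotoxic markers tested, 4 fell (median log2 change -0.39), and of 7 dendritic cell markers 5 fell and 2 rose (median -0.48). The summed dendritic cell markers went the other way, from 192 to 429 CPM on day 0 (median 304) to 248 to 495 CPM on day 56 (median 375). The lowest marker of that list, CLEC9A, had a median of 0.144 CPM. Of 5 eosinophil and basophil markers 3 rose (median 0.60), while 1 of 5 platelet and 1 of 6 erythroid markers rose. All 6 erythroid markers had risen on day 21 (median 2.23), when 66.4% of all genes passed in either direction.

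The closest neighbours of the receptors were compared with them after their values were seen. CYP4V2, listed 2 genes from TLR3 in RefSeq, had r = 0.63 with TLR3 over all libraries, and FAM114A1, the gene next to TLR6, had r = 0.56 with it. PRPS2, next to TLR7, had r = 0.51 with it, and POC1A, 2 genes from TLR9, had r = -0.52 with TLR9. The libraries share steers, days and lanes, and whether reads were shared between neighbours was not tested.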
